A study of Mus musculus with 12 samples.

Results

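The IL-1 (interleukin-1) family and inflammatory caspases were followed in cultured mouse monocytes through 6 genes: the cytokine genes Il1b and Il18, the antagonist gene Il1rn, and the inflammatory caspase genes Casp1, Casp4 and Casp12. They were chosen by name, with earlier results of these data known, as the rows of these symbols in each deposited table with library values. They are 6 of the 2038 genes listed in at least 1 of the 3 such tables. Monocytes had been isolated from mouse bone marrow by magnetic sorting (MACS), and all groups were cultured with 20 ng/mL of the macrophage growth factor M-CSF. Cells received 100 U of mouse interferon β (IFNβ) or none, for 12 h or 24 h, which makes 4 groups of 3 replicates whose controls also received M-CSF. The labels give no strain, sex or age, and do not say whether replicates came from separate animals. Any p-value therefore reflects how much these samples varied, and that variation may be technical.

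IL-1β and IL-18 are made as inactive precursors that caspase-1, activated in protein complexes called inflammasomes, cuts into secreted cytokines. Mouse caspase-4, also called caspase-11, senses cytosolic bacterial lipopolysaccharide and cuts gasdermin D, which opens pores in the plasma membrane. The IL-1 receptor antagonist, encoded by Il1rn, occupies the IL-1 receptor without signalling. In monocytes and macrophages these genes are known to be controlled by microbial and interferon signals, and messenger RNA alone does not show whether a precursor was cut.

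The 3 caspase genes are neighbours. In the GRCm38 build with GENCODE vM21 gene models, Casp1 (chr9:5298517-5307265), Casp4 (chr9:5308828-5336783) and Casp12 (chr9:5345430-5373032) all lie on the plus strand within 74.5 kb, with gaps of 1.56 kb and 8.65 kb and with 3 annotated genes in that interval. Il18 lies farther along the same chromosome (chr9:50554827-50581840, plus strand). On another chromosome, Il1rn (chr2:24336853-24351494, plus strand) and Il1b (chr2:129364570-129371139, minus strand) are far apart. No stretch of 50 bases was shared between the annotated transcripts of any of the 15 pairs of members, so the caspase values are not mixed through identical stretches of that length.

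**Figure D1:**
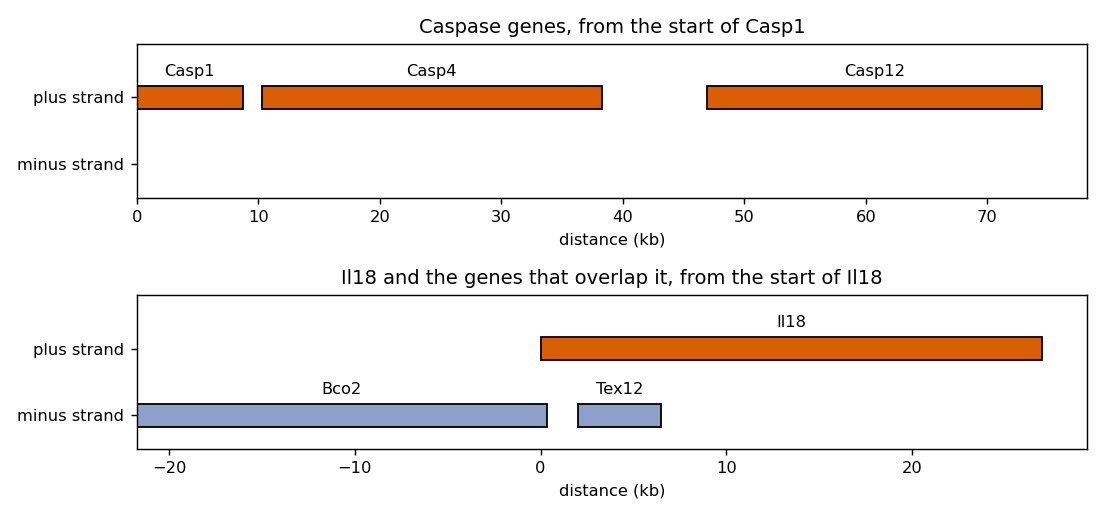
Maps of the gene spans, with the distance in kb on the horizontal axis and the strand on the vertical axis; orange bars are members and blue bars are genes that overlap Il18. The upper map starts at Casp1 and shows the 3 caspase genes on the plus strand within 74.5 kb, and the lower map starts at Il18 and shows Bco2 and Tex12 on the minus strand.

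Stretches upstream of the transcription start sites of the caspase genes, Il18 and Il1rn are shown because these 5 genes were listed as higher with IFNβ at 12 h. They come from RefSeq (GRCm38.p6), run 5′ to 3′ on the plus strand, and stop before the first exon base of the GENCODE model. Capitals mark matches to the motifs searched.

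Casp1 (chr9:5298267-5298516): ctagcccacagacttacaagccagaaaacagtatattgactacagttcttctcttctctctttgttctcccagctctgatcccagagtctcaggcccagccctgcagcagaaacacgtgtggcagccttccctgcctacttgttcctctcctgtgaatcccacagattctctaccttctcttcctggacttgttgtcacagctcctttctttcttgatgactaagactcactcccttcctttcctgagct
Casp4 (chr9:5308599-5308827): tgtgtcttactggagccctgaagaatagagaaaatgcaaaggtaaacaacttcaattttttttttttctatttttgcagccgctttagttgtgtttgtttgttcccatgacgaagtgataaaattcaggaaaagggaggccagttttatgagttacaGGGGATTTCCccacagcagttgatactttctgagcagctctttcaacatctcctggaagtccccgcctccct
Casp12 (chr9:5345226-5345429): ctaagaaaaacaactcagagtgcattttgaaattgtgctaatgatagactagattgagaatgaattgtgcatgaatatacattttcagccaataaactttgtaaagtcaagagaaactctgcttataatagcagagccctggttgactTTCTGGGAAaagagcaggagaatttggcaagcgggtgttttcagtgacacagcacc
Il18 (chr9:50554450-50554699): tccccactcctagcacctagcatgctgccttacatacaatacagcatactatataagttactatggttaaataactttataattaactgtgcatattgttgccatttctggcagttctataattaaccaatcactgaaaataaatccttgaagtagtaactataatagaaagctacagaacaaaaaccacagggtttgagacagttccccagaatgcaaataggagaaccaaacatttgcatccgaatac
Il1rn (chr2:24336610-24336852): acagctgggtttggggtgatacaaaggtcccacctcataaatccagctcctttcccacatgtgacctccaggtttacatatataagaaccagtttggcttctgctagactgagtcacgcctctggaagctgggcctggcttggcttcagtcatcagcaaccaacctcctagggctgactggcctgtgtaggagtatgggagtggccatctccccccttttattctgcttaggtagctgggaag

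For description, 3 letter patterns were searched on both strands in the 250 bases before each RefSeq start site, in 32851 windows of 27025 genes. The core of the interferon-stimulated response element, GAAANNGAAA, was found in 2.98% of all windows and in 0 of the 9 windows of the members. The STAT-type pattern TTCNNNGAA was found in 7.02% of all windows and in 1 member window, that of Casp12, where it matched at positions -102 to -94, shown in capitals, and at -36 to -28, in the part left out. The NF-κB-type pattern GGGNNTTTCC was found in 1.41% of all windows and in 3 member windows. They were both windows of Casp4, with GGGGATTTCC at -93 to -84 in the stretch shown and a minus-strand match at -14 to -5 in the part left out, and 1 window of Il1rn that is not shown. The Casp4 windows share 239 of their 250 bases, so the same matches are counted in both. These are matches of letters in a fixed window, and nothing about binding follows from their presence or absence.

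The measured values are normalized counts that the authors scaled within each table, so the sequencing depth is unknown. A table lists a gene only when the authors' adjusted p was under 0.05 and their log2 fold change was at least 1 in size. A member that is not listed is therefore not shown to be unchanged. Tests below were made with limma on log2(normalized count + 1) with Benjamini-Hochberg adjustment over the number of tested genes implied by the authors' p-values. They describe genes that the authors had already selected. That selection also favours groups that do not overlap, and every listed member had such groups, called or not. The share of all listed genes without overlap is not given here. Of 11 monocyte and macrophage markers looked up, Ly6c2 was listed as higher and Mrc1 as lower with IFNβ at 12 h. Ly6c2 rose from 23569 ± 392 to 179844 ± 25053 normalized counts (SD, n = 3), and Mrc1 fell from 12592 ± 3224 to 2165 ± 1359. The levels of the markers that are not listed were not analysed here.

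With IFNβ at 12 h, 5 of the 6 members were higher, and all 5 were called by limma. Over all genes, the authors listed 5.7% as higher and 3.17% as lower. The limma fit covered only the 1388 listed genes and called 1209 of them, which is 7.72% of the 15661 genes tested by the authors. Most listed genes were thus called. Il18 rose 26.8-fold, Il1rn 10.1-fold, Casp4 5.47-fold, Casp12 3.58-fold and Casp1 2.71-fold as ratios of group means. Il1b was not listed. In bulk RNA, a change in the number of cells of a type and a change in RNA per cell cannot be told apart.

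**Figure D2:**
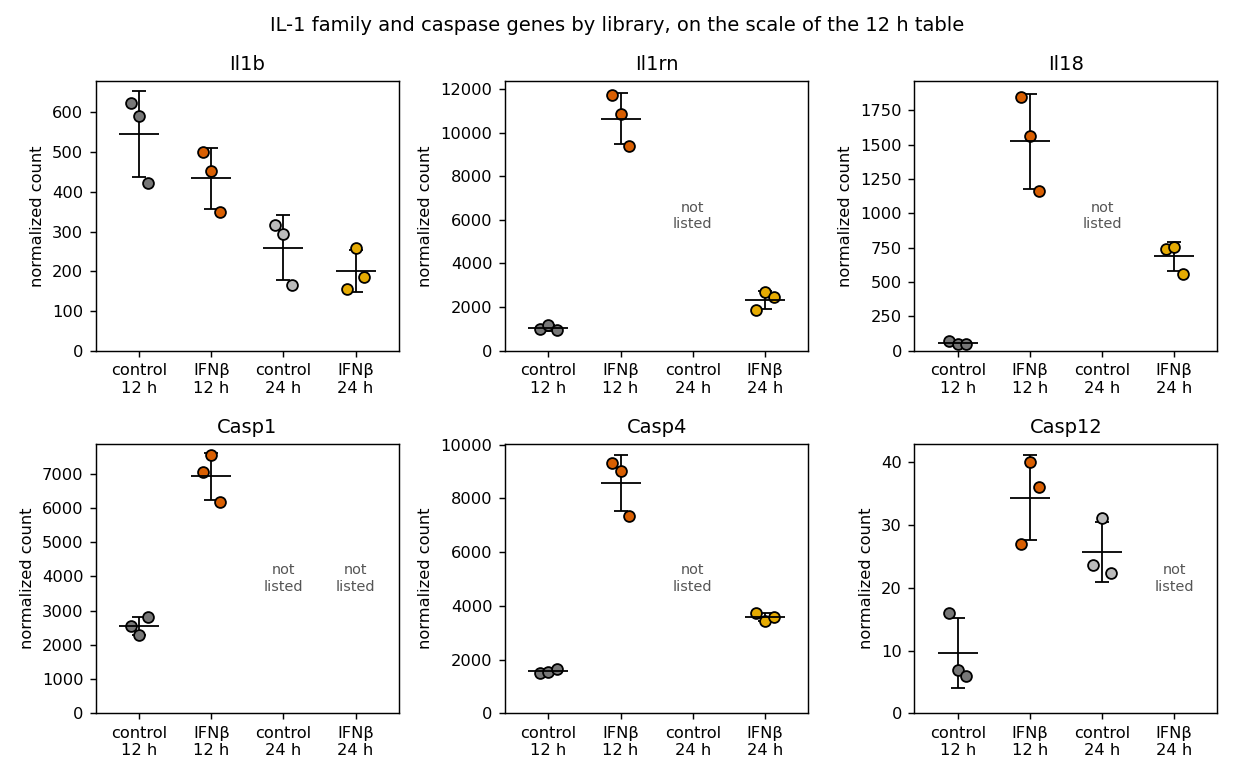
Normalized counts of the 6 members by group, with values of the tables of time put on the scale of the 12 h table; each point is 1 library and bars give the mean ± SD of 3 replicates. The control and IFNβ libraries at 12 h do not overlap for the 5 members other than Il1b, whose groups overlap at both times. Those 5 were listed for a difference at 12 h, which favours groups that do not overlap.

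IL-18 promotes interferon γ production by lymphocytes, and its gene had the largest fold among the members. Il18 had 68.8, 49.97 and 51.9 normalized counts in control replicates 1, 2 and 3 at 12 h, and 1850, 1566 and 1160.1 in IFNβ replicates 1, 2 and 3. The lowest IFNβ library was far above the highest control library, and the IFNβ replicates spread more widely, relative to their mean, than those of the other called members. Means were 56.9 ± 10.4 and 1525 ± 347 (SD, n = 3). The log2 difference was 4.71 ± 0.25 (SE) with an adjusted p of 3.96e-08 by limma, and it kept its call under each of the 12 alternative settings.

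Genes on the opposite strand overlap the span of Il18, namely Bco2, which encodes a carotenoid-cleaving enzyme, and Tex12, named for its expression in testis. Their exons share 0 bases with those of Il18, but neither the strand setting nor the features counted are stated in the labels. Both were also listed as higher at 12 h, and they are named here after their values were seen. Bco2 rose from 16.1 ± 2.17 to 553 ± 103 normalized counts and Tex12 from 4.26 ± 2.81 to 26.7 ± 2.89 (SD, n = 3). Their part in the Il18 values was not tested.

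Il1rn, the gene of the antagonist, had 987, 1202 and 971 normalized counts in control replicates 1, 2 and 3 at 12 h, and 11707, 10846 and 9383 with IFNβ. All 3 IFNβ libraries were above all 3 controls. Means were 1053 ± 129 and 10645 ± 1175 (SD, n = 3), with a log2 difference of 3.34 ± 0.16 (SE) and an adjusted p of 2.04e-08 by limma. Il1rn kept its call under each of the 12 alternatives.

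Among the caspases, Casp4 had the largest fold. Casp4 had 1503, 1539.9 and 1658 normalized counts in control replicates at 12 h, and 9323, 9029 and 7364 with IFNβ. The groups did not overlap, and means were 1567 ± 80.8 and 8572 ± 1056 (SD, n = 3), a log2 difference of 2.44 ± 0.16 (SE) with an adjusted p of 2.33e-07 by limma. Casp1, the protease that cuts the cytokine precursors, had 2564, 2302 and 2814 normalized counts in the controls and 7042, 7545 and 6189 with IFNβ. The groups again did not overlap, and means were 2560.1 ± 256 and 6926 ± 686 (SD, n = 3), a log2 difference of 1.44 ± 0.16 (SE) with an adjusted p of 3.55e-05 by limma. Casp1 and Casp4 also kept their calls under each of the 12 alternatives.

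Casp12, a caspase related to caspase-1 whose function is less settled, was scarce. It had 16.0, 6.91 and 5.89 normalized counts in the controls at 12 h and 26.9, 40.0 and 36.0 with IFNβ. The groups did not overlap, with the controls' highest library at 16.0 and the lowest IFNβ library at 26.9. Means were 9.59 ± 5.55 and 34.3 ± 6.74 (SD, n = 3), a log2 difference of 1.84 ± 0.45 (SE) with an adjusted p of 0.0225 by limma. This call was lost on leaving out any library other than control replicate 1, with adjusted p from 0.0714 to 0.1199. The spread of Casp12, an SE of 0.45 against 0.16 to 0.25 in the other 4, makes its place between Casp4 and Casp1 by fold uncertain.

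IFNβ replicate 1 at 12 h had the highest value of the 3 IFNβ libraries for 49.9% of the 1388 genes in this table. Il1rn, Il18 and Casp4 also had their highest value there, while Casp1 and Casp12 had theirs in replicate 2.

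In the authors' deposited table, the members stood at very different ranks by fold change among the 892 higher genes. Il18 ranked 107, Il1rn 219, Casp4 356, Casp12 517 and Casp1 661. Over time with IFNβ, Il1rn ranked 65, Casp4 174, Il18 202 and Il1b 214 of 267 lower genes, and without IFNβ Il1b ranked 138 of 152 in the authors' deposited table.

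**Figure D3:**
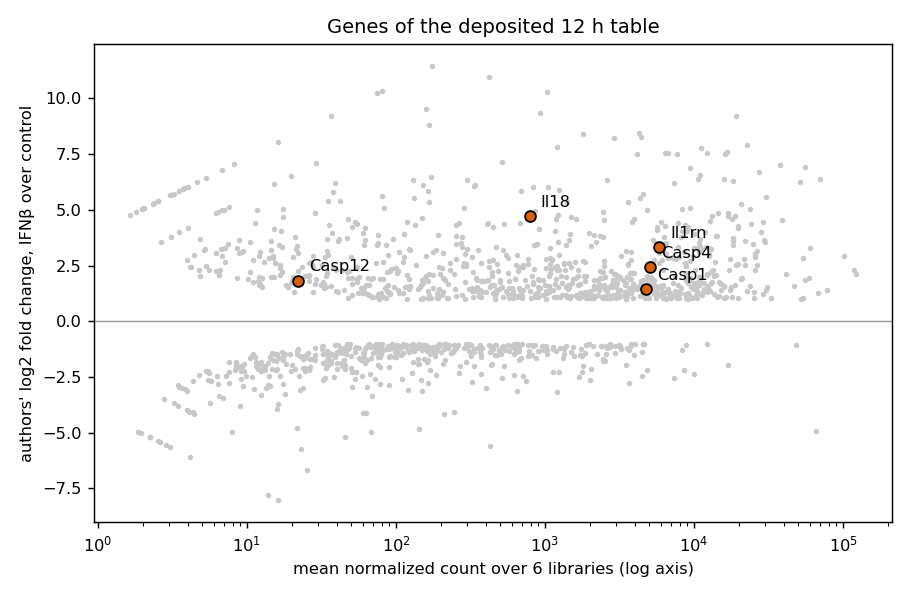
Each point is a gene of the authors' 12 h table, with its mean normalized count over 6 libraries (log axis) against the authors' log2 fold change of IFNβ over control; orange points are members. Il18 at 4.74 is the highest member, Casp12 lies at low counts, and Il1rn, Casp4 and Casp1 lie close together in mean count.

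**Figure D4:**
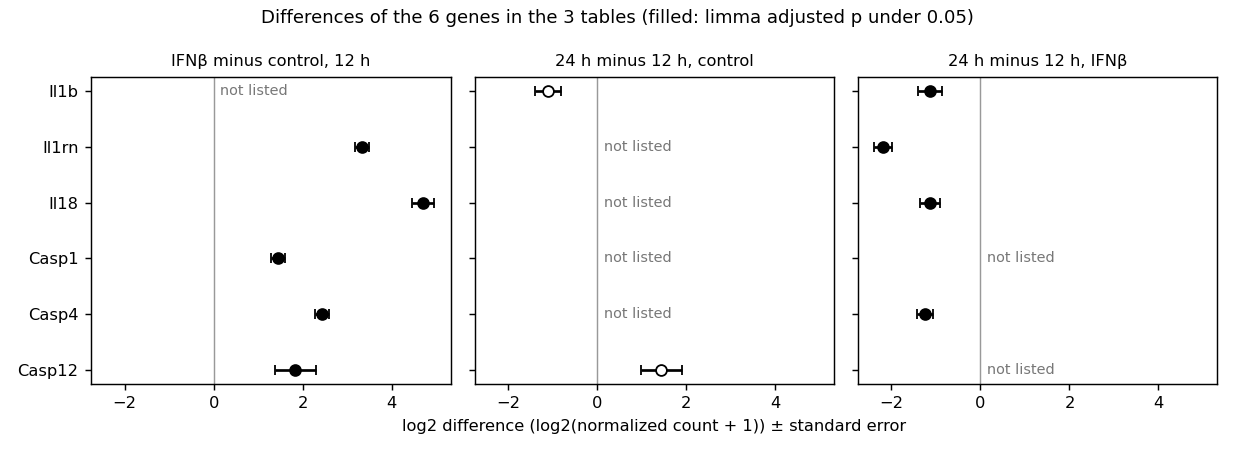
Log2 difference of each member in each of the 3 tables (horizontal axis), with its standard error as a bar; filled points had a limma adjusted p under 0.05. The 5 members listed for IFNβ at 12 h lie above 0 and the 4 listed over time with IFNβ lie below 0, while the 2 points for time without IFNβ are open.

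Levels were compared between genes per kb of exon, on the scale of the 12 h table, to which the Il1b values were rescaled. The exons of all annotated transcripts of a gene were joined, which gave 5535 bases for Il1rn and 1907 for Il1b. Which transcripts were expressed is not known. In controls at 12 h the order was Casp1 at 1710.2 ± 171 normalized counts per kb, Casp4 at 422 ± 21.8, Il1b at 286 ± 56.9, Il1rn at 190.2 ± 23.3, Il18 at 55.2 ± 10.1 and Casp12 at 2.50 ± 1.44 (SD, n = 3). With IFNβ, Casp1 was at 4626 ± 458, Casp4 at 2310.5 ± 285, Il1rn at 1923 ± 212, Il18 at 1479 ± 336, Il1b at 228 ± 40.2 and Casp12 at 8.93 ± 1.75. Il1b thus stood between Casp4 and Il1rn in controls and between Il18 and Casp12 with IFNβ, while the other 5 kept their order. This order depends on the exon lengths used. Before division by length, controls at 12 h had 1053 normalized counts of Il1rn and 545 of Il1b. The spreads of Casp4 and Il1rn overlapped with IFNβ, as did those of Il1rn and Il18. The per-kb ratio of Casp4 to Casp1 was 0.248 ± 0.0189 in controls and 0.499 ± 0.0305 with IFNβ (SD, n = 3), and the replicates did not overlap.

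**Figure D5:**
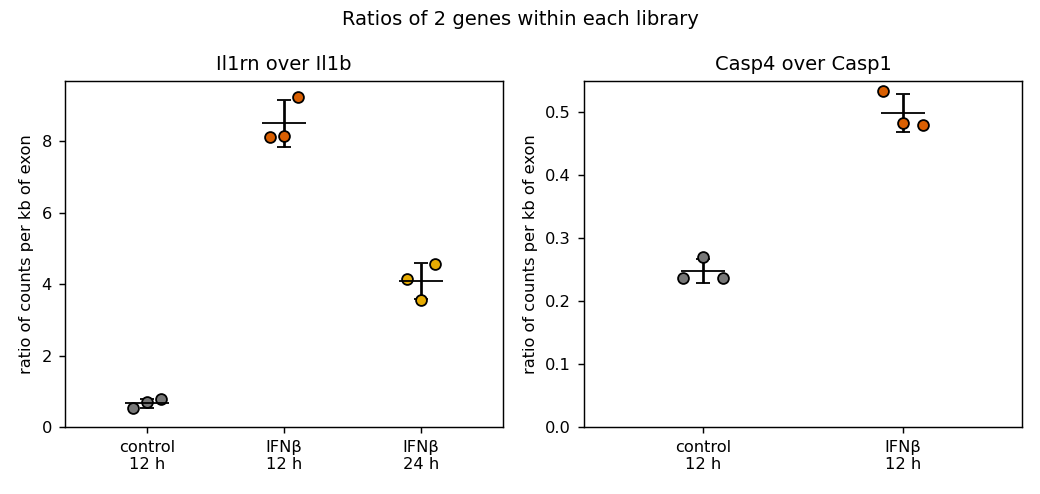
Per-kb ratios of Il1rn to Il1b and of Casp4 to Casp1 within each library; points are replicates and bars give the mean ± SD of 3. The ratio of Il1rn to Il1b lies between 0.545 and 0.794 in controls at 12 h and between 8.12 and 9.25 with IFNβ, and that of Casp4 to Casp1 averages 0.248 in controls and 0.499 with IFNβ.

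The antagonist and the cytokines were set against each other in each library. Because Il1b is listed only in the tables of time, its values were put on the scale of the 12 h table. This used the libraries that both tables share, with factors of 0.889 for controls and 1.11 for IFNβ. The factor enters the control ratios only. With IFNβ, both genes of a ratio were read from the same table of time. The per-kb ratio of Il1rn to Il1b was 0.545, 0.702 and 0.794 in control replicates 1, 2 and 3 at 12 h. With IFNβ it was 8.12, 8.14 and 9.25 at 12 h, and 4.16, 3.57 and 4.57 at 24 h. The ratio of Il18 to Il1b went from 0.196 ± 0.0363 in controls to 6.44 ± 0.393 with IFNβ at 12 h and 6.60 ± 1.93 at 24 h (SD, n = 3). These ratios are values with no test, and their size depends on the exon lengths used.

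Il1b itself was compared between IFNβ and control on this one scale, also with no test. At 12 h it had 545 ± 109 normalized counts in controls and 434 ± 76.6 with IFNβ, and at 24 h 259 ± 81.2 and 200.03 ± 52.5 (SD, n = 3). The groups overlapped at both times, with log2 differences of -0.32 and -0.35. By replicate number, IFNβ was below control in 3 of 3 pairs at 12 h, with ratios of 0.80, 0.77 and 0.83 in replicates 1, 2 and 3. At 24 h the pairs were mixed, with ratios of 0.49, 0.88 and 1.12. Without the rescaling the log2 differences were -0.65 at 12 h and -0.67 at 24 h. At 12 h the value was -0.50 without control replicate 3 and -0.18 without IFNβ replicate 3. At 24 h, leaving out any library other than IFNβ replicate 3 moved it by over 1.5 times, to between -0.18 (without control replicate 1) and -0.64 (without control replicate 3). The antisense gene Il1bos shares 25 exon bases with Il1b, 1.31% of its exon length, and reads there cannot be told apart without the strand setting.

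Over time without IFNβ, 2 members were listed, Casp12 as higher and Il1b as lower. Over all genes the authors listed 3.12% as higher and 0.961% as lower. The limma fit covered only the 645 listed genes and called 277 of them, which is 1.75% of the 15822 genes tested by the authors. By limma 0 of these 2 members were called, while both had an unadjusted p under 0.05. Il1b had 702, 664 and 474 normalized counts in control replicates 1, 2 and 3 at 12 h and 356, 332 and 187 at 24 h. Every 24 h library was below every 12 h library, and replicate 3 was the lowest at both times. Means were 613 ± 122 and 292 ± 91.4 (SD, n = 3), with a log2 difference of -1.10 ± 0.30 (SE) and an adjusted p of 0.164 by limma. With the replicate number as a block, the adjusted p was 0.00400 by limma. With so few libraries, that fit leans on variances pooled over the listed genes, and says little about the own spread of Il1b. In the authors' deposited table the log2 fold change of Il1b was -1.07 with an adjusted p of 7.98e-04.

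Casp12 had 17.3, 7.90 and 6.84 normalized counts in the controls at 12 h and 26.5, 34.9 and 25.1 at 24 h. The groups did not overlap, but the log2 difference of 1.45 ± 0.45 (SE) had an adjusted p of 0.300 by limma, and 0.213 with the replicate block. The authors' deposited table gives 1.43 with an adjusted p of 0.0437.

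In the same table, 2 of 12 neutrophil markers, Retnlg and Mmp9, were listed as higher at 24 h. Their summed level was between 6233 and 14767 normalized counts at 12 h and between 16495 and 39261 at 24 h, and limma called 0 of them. The B cell markers Ms4a1 and Fcmr, 2 of 6, were listed as higher too, with a summed level of 26.4 to 39.3 at 12 h and 72.2 to 103.8 at 24 h. Cd4 (7.96 to 24.6 against 55.1 to 55.9 normalized counts), the dendritic cell marker Siglech (223 to 314 against 486 to 749.6) and the macrophage marker C1qa (242 to 665 against 2555 to 4705) were likewise listed as higher, and of the 4 mast cell and basophil markers 0 were listed. Limma called C1qa alone among these markers. Their part in the Il1b and Casp12 values was not tested.

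Over time with IFNβ, 4 members were listed, all as lower at 24 h, and limma called all 4. Over all genes the authors listed 2.16% as higher and 1.72% as lower. The limma fit covered only the 602 listed genes and called 366 of them, which is 2.36% of the 15541 genes tested by the authors. Most listed genes were thus called. Il1rn fell the most, to 0.221 of its 12 h mean, followed by Casp4 to 0.420, Il18 to 0.451 and Il1b to 0.461. Casp1 and Casp12 were not listed.

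Il1rn had 10548, 9603 and 8418 normalized counts in IFNβ replicates 1, 2 and 3 at 12 h and 1686, 2398 and 2216 at 24 h. The groups did not overlap, and replicate 1 went from the highest at 12 h to the lowest at 24 h. The log2 difference was -2.19 ± 0.19 (SE) with an adjusted p of 2.56e-04 by limma, which kept its call under all 12 alternatives. Casp4 had 8399, 7995 and 6607 normalized counts at 12 h and 3344, 3096 and 3222 at 24 h. Its 24 h libraries lay close together, with a mean of 3221 ± 124 (SD, n = 3) against 7667 ± 940 at 12 h. The log2 difference of Casp4 was -1.24 ± 0.18 (SE) with an adjusted p of 0.00318 by limma, and 0.0570 without a variance trend.

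For the cytokines, Il18 had 1667, 1386 and 1040.5 normalized counts at 12 h and 667, 676 and 503 at 24 h with IFNβ. The groups did not overlap, and replicate 3 was the lowest at both times. The log2 difference was -1.13 ± 0.23 (SE) with an adjusted p of 0.0203 by limma. The call was lost without IFNβ 12 h replicate 1 (adjusted p = 0.1195), without IFNβ 24 h replicate 3 (0.159) and without a variance trend (0.136). Il1b had 448, 407 and 314 normalized counts at 12 h and 140, 232 and 167 at 24 h. The groups did not overlap, and the log2 difference was -1.13 ± 0.26 (SE) with an adjusted p of 0.0492 by limma. Leaving out any library other than IFNβ 24 h replicate 2 gave an adjusted p of 0.0844 to 0.258. The main fit and the fits with a library left out did not use the replicate number. With the replicate number as a block, the adjusted p by limma was 4.06e-09 for Il18 and 1.24e-05 for Il1b. With so few libraries, that fit leans on variances pooled over the listed genes. Its p-values therefore say little about the spread of each gene's own replicates.

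Il1b was the only member listed in both tables of time, so its change over time could be compared with and without IFNβ. It entered because the authors had listed it for a log2 fall of at least 1 in both. That selection favours a difference near 0, and a member that fell only with IFNβ could not enter. The difference between the log2 changes was -0.03 ± 0.42 (SE), with a 95% confidence interval of -0.92 to 0.87 and an adjusted p of 0.99984 by limma over 12 libraries. For this test limma called 17 of 224 genes, or 7.59%, and 0 of the 1 member that entered. Il1b had an unadjusted p of 0.952 by limma. A larger or a smaller fall with IFNβ, within that interval, was not detectable with these samples.

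Beside the falls with IFNβ, Cd4 was listed as higher at 24 h (82.5 to 98.1 normalized counts against 11.3 to 22.6) and Xcr1 as lower (70.3 to 80.2 against 135 to 220.1). The macrophage markers Mrc1 and C1qa were listed as higher, with a summed level of 1003 to 3517 at 12 h and 5481 to 11542 at 24 h. No neutrophil, B cell, mast cell or basophil marker was listed, and the part of these markers in the members' changes was not tested.

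How much of the 12 h rise was left at 24 h was read on the scale of the 12 h table, with no test, because the 24 h controls of Il1rn, Il18 and Casp4 are not listed. Il18 at 24 h with IFNβ was 12.1-fold above the 12 h control, Casp4 2.29-fold and Il1rn 2.22-fold, and none of these groups overlapped with the 12 h controls. By replicate number, 43.4% ± 4.81 of the rise was left for Il18, 29.3% ± 4.25 for Casp4 and 13.8% ± 4.91 for Il1rn (SD, n = 3). These members have values at 24 h because the authors listed them for a log2 fall of at least 1. That selection keeps the share left low. Casp1 and Casp12, not listed over time with IFNβ, could not enter, so the shares do not describe all members that rose. The separate deposited table for 24 h lists 5 genes, and 0 of them are members.

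Other genes of the pathway were looked up from a list of 57 genes, of which 51 are not members. At 12 h, 10 of the 51 were listed as higher and 1 as lower. Over all genes, the authors listed 5.7% as higher and 3.17% as lower. The list was chosen with earlier results known and includes interferon-inducible GTPase genes, so the count is no test of the pathway. The inhibitors Il18bp, a soluble protein that binds IL-18, and Il1r2, a decoy receptor for IL-1, rose. Il18bp went from 273 ± 84.8 to 4006 ± 325 normalized counts, and Il1r2 from 493 ± 210.5 to 1518 ± 554 (SD, n = 3), with log2 differences of 3.91 ± 0.22 and 1.67 ± 0.34 (SE). Il1r1, the signalling receptor, had 132 ± 43.9 and 59.9 ± 11.4 normalized counts, with an adjusted p of 0.0690 by limma. The DNA sensor Aim2 and Casp8 rose by 1.05 ± 0.18 and 1.02 ± 0.15 on the log2 scale (SE). The nucleic acid sensor Zbp1 rose by 5.26 ± 0.17. The interferon-inducible GTPase genes Gbp2, Gbp3, Gbp5, Irgm1 and Gm12250 rose by 3.40 to 4.77.

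Over time, Naip1, which encodes a sensor of bacterial secretion system proteins, was listed as higher both without and with IFNβ. It went from 15.8 ± 7.56 to 79.4 ± 5.40 normalized counts in controls and from 20.9 ± 2.53 to 109.1 ± 24.8 with IFNβ (SD, n = 3), with adjusted p of 0.0256 and 0.00393 by limma. Il1f9, the gene of IL-36γ, was listed as higher in controls with an adjusted p of 0.0614 by limma. With IFNβ, Nlrc3 rose by 1.07 ± 0.24 (SE) on the log2 scale. Gbp2, Gbp3 and Gbp5 fell too, with log2 differences of -1.61, -1.21 and -1.71.

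Markers of other cell types were looked up beside the 12 h comparison. Of 9 T and NK cell markers, Gzma and Gzmb were listed as higher, with a summed level of 39.9 to 119 normalized counts in controls and 300.5 to 675 with IFNβ. Of 7 dendritic cell markers, Xcr1 was listed as higher and Flt3, Cd209a and Itgax as lower, with a summed level of 1982 to 2070 in controls and 667 to 858 with IFNβ. Of 12 neutrophil and 4 mast cell and basophil markers, 0 were listed, and of 6 B cell markers Blk was listed as lower. Their part in the members' changes was not tested.

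Profiles over the 6 libraries were compared among listed genes, leaving out members and symbols of the form Gm with digits or ending in Rik. By root mean square difference of log2 values, a description with no test, the remaining genes nearest in profile to each member were found. At 12 h they were Mnda (0.126) and Batf2 (0.168) for Il18, Glrp1 (0.116) and Gbp3 (0.118) for Il1rn, and H2-D1 (0.0514) and Trim5 (0.0755) for Casp1. For Casp4 they were Scarf1 (0.0767) and Nmi (0.0855), and for Casp12 P2ry13 (0.320) and Cyp26c1 (0.364). Over time with IFNβ they were Spaca9 (0.0975) and Car2 (0.108) for Il1b, and Zdhhc22 (0.263) and Cyp2ab1 (0.272) for Il1rn. Prkce (0.0774) and Igfbp6 (0.125) were nearest to Il18, and Cd40 (0.0703) and Dusp2 (0.0773) to Casp4. Over time without IFNβ, Avil (0.194) was nearest to Il1b, and Cd209c (0.241) and Fgfr1 (0.264) were nearest to Casp12.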

How the data were processed

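RNA was sequenced from 12 samples. Per the submitters' processing notes, the authors used bcl2fastq, HISAT2 2.2.1 and edgeR 3.3.3 on GRCm38; how reads were counted (tool, annotation, strand, low-count filter) is not given in the sources used here. The authors deposited 3 tables whose library columns are a signal, read from the values as normalized counts, since whole reads could not be recovered. The same tables hold the authors' log2 fold change, p-value and adjusted p-value, per the file headers. A further file, deposited for the 24 h comparison, holds the authors' fold changes of 5 genes.

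The count test planned for whole counts was not used. limma 3.58.1 (R 4.3.3) with a variance trend was fitted on log2(value + 1) over all genes of a table, tested on simulated data first, with a call at adjusted p under 0.05. Adjustment ran over the number of tested genes implied by the authors' p-values, 15661 at 12 h, 15822 over time without IFNβ and 15541 with it. Listed genes were selected by the authors for small p-values, so limma describes them and is no independent test. The interaction was fitted over the 224 genes of both tables of time.

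Replicate numbers come from the labels. Same-numbered samples deviated together in all 9 pairs (r across genes 0.159 to 0.400, against -0.327 to 0.115 for different numbers). Deviations from a group mean cancel within the group, so the range for different numbers is not an independent reference. The number may thus pair samples, and the main fits did not use it.

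The members and lists were chosen with earlier results of these data known. Named are the members, listed pathway and marker genes, and the 2 genes nearest in profile per member and table, of which 1 is not reported here. Alternatives were a pseudocount of 0.1, a mean of at least 10, no variance trend, the replicate block, adjustment over listed genes, a threshold of 0.01 and each library left out. Of the 57 pathway genes, 56 matched a RefSeq symbol. Tables were made in Python 3.11.15 (pandas 2.3.3, numpy 2.4.6, scipy 1.17.1), and figures with matplotlib 3.10.9.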

Additional observations from a re-analysis of the deposited data

How the results depend on the processing

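Il1rn, Il18, Casp1 and Casp4 at 12 h, and Il1rn over time with IFNβ, kept their direction and their call under every alternative tried. Over time without IFNβ, limma called 277 genes and 0 members. This became 148 genes without a variance trend, 473 genes and 1 member with the replicate block, 637 genes and 2 members when adjusted over the listed genes, and 82 genes at a threshold of 0.01. Leaving out 1 library gave 67 genes (without control 24 h replicate 3) to 228 (without control 12 h replicate 1). Over time with IFNβ, limma called 366 genes and 4 members. This became 139 genes and 1 member without a variance trend, 570 genes with the replicate block, 602 genes when adjusted over the listed genes, and 198 genes and 2 members at a threshold of 0.01. Leaving out 1 library gave 148 to 314 genes and 2 to 4 members, with the fewest genes without IFNβ 24 h replicate 3 and fewer than in the full fit by over 1.5 times also without IFNβ 12 h replicates 1 (230 genes) and 3 (243 genes). The interaction, with 17 genes called, gave 45 with the replicate block and 10 at a threshold of 0.01. Its value for Il1b ran from -0.32 to 0.15 when 1 library was left out and was called in none of these fits. The difference of Il1b between IFNβ and control at 12 h was -0.32, and -0.65 without rescaling. At a threshold of 0.01, Casp12 at 12 h and Il1b and Il18 over time with IFNβ were no longer called, and with a pseudocount of 0.1 or a mean of at least 10 the adjusted p of Il1b over time with IFNβ was 0.0689 and 0.0518 by limma. The replicate block changed no call of a member other than that of Il1b over time without IFNβ. The cause of these shifts was not tested. With the depth unknown, no counting interval could be given, and Casp12 is the member nearest to 0.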
